A study of Bos taurus with 9 samples.

Results

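COX1, COX2, COX3, CYTB, ATP6 and ATP8 are the subunits of respiratory complexes III and IV and of ATP synthase that are encoded in mitochondrial DNA (mtDNA). The 6 genes were taken by symbol from the 17162 genes of the FPKM table, in which 13 protein-coding genes of mtDNA are listed. They were chosen by their lower FPKM after IFNT, so their values in both comparisons with GB describe that difference and do not test it. No p-value is given for them there. In bovine endometrial cells all 6 were lower in GB than in either other group, but by unequal amounts. COX1 kept 46% of its CON level and CYTB kept 12.6%.

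The respiratory chain moves electrons to oxygen and pumps protons across the inner mitochondrial membrane, and ATP synthase uses the returning protons to make ATP. Cytochrome b, the product of CYTB, is the only mtDNA-encoded subunit of complex III. COX1, COX2 and COX3 form the core of complex IV, in which COX1 and COX2 hold the metal centres that pass electrons to oxygen. ATP6 forms part of the proton channel of ATP synthase, and ATP8 is a small membrane subunit beside it. The remaining subunits of these complexes are made from nuclear genes. Animal mtDNA is transcribed into long RNAs that hold several genes, and most mRNAs are released where tRNAs are cut out, so that the level of each mRNA also depends on its processing and its decay.

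The study sequenced mRNA of primary bovine endometrial cells, labelled epithelial and wild type, in 9 libraries, 3 each of CON, GA and GB. CON cells received neither hormones nor IFNT. GA cells were given 1 nM estradiol (E2) and 100 nM progesterone (P4), by the methods for 12 h. GB cells were given the same hormones for 12 h and after that 100 ng/mL interferon tau (IFNT), the type I interferon of the ruminant conceptus, for 12 h more. The cells came from uteri of Holstein cows collected at an abattoir and were purified by differential attachment. The methods call the replicates biological and describe cells plated in dishes and then divided into groups. They do not say whether the replicates came from different animals, so p-values measure the spread between these libraries. The sources also do not give the harvest times of CON and GA separately, and in comparisons with GB the time in culture and IFNT cannot be told apart. The same holds for the time in culture and the hormones in GA vs. CON.

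Values are the authors' FPKM, which are scaled for gene length and for the mapped reads of a library. Different genes are compared here as FPKM only, and how far FPKM follows the amounts of their mRNAs was not tested. The FPKM summed to between 1395622 and 1442723 per library, and the table holds no read counts, so no counting interval is given. Differences were fitted with limma on log2(FPKM + 0.5) over 12578 genes, and a gene was called when its log2FC was beyond 1 in size with an adjusted p under 0.05. ISG15, an interferon-stimulated gene, ranged over 1.76 to 7.01 FPKM for CON, 1.80 to 6.46 for GA and 5536 to 5616 for GB. For GREB1, an estrogen-responsive gene, the ranges were 0.09 to 0.38 FPKM (CON), 2.12 to 2.44 (GA) and 2.03 to 2.51 (GB). The study detected cytokeratin in these cells by immunofluorescence, but RNA of epithelial markers was near 0. The 7 epithelial markers in the table summed to 0.43 to 1.90 FPKM per library and none reached the mean FPKM of 0.5 required for testing. KRT18 was at most 0.67 FPKM and KRT8 was listed at 0 in CON1 and CON2, whereas VIM, a mesenchymal marker, was at 7773 to 9570 FPKM. The 8 stromal markers summed to 16091 to 16684 FPKM for CON, 16169 to 16548 for GA and 14459 to 14621 for GB, and 6 immune and endothelial markers to at most 5.03 FPKM in any library. The part of the lower stromal sum in the results below was not tested, and in bulk RNA fewer cells of a type and less RNA per cell cannot be told apart.

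COX1, the catalytic subunit of complex IV, was at 4250.1, 3813 and 4363 FPKM in CON, 4461, 4519 and 4617 in GA, and 1821, 1952 and 1937 in GB. The GB libraries lay below all others, and CON2 was the lowest of the CON libraries. The mean of 1903 ± 71.7 FPKM (SD, n = 3) in GB was 46% of that in CON and 42% of that in GA. The log2FC was −1.12 (SE 0.0545) against CON and −1.25 against GA, the smallest differences of the 6 genes. COX1 was the 111th lowest of the 12578 tested genes in GB vs. CON, just inside the log2FC limit of a call.

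COX2, which receives electrons from cytochrome c, was at 2884, 3060.5 and 2901 FPKM in CON, 3200.1, 3251 and 3192 in GA, and 475, 504 and 519 in GB. No GB library came near the other 6, and here CON2 was the highest of the CON libraries. The mean in GB, 499 ± 22.3 FPKM (SD, n = 3), was 16.9% of that in CON and 15.5% of that in GA, with log2FC of −2.56 (SE 0.0428) and −2.69. COX2 therefore differed 5.91-fold in GB vs. CON, against 2.18-fold for COX1 of the same complex.

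COX3, the core subunit of complex IV without a metal centre, was at 4052, 3091 and 4127 FPKM in CON, 4295, 4339.7 and 4511 in GA, and 777, 822 and 806 in GB. CON2 stood apart from CON1 and CON3, and still lay well above the GB libraries. The mean in GB was 802 ± 23.0 FPKM (SD, n = 3), 21.3% of that in CON and 18.3% of that in GA. The log2FC was −2.22 (SE 0.0962) in GB vs. CON, −2.35 without CON2, and −2.45 in GB vs. GA.

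CYTB was at 301, 289 and 329 FPKM in CON, 337, 342 and 364 in GA, and 34.5, 39.7 and 41.7 in GB. All 3 groups were separate, with GB lowest and GA highest. The mean in GB, 38.6 ± 3.68 FPKM (SD, n = 3), was 12.6% of that in CON and 11.1% of that in GA. Its log2FC of −2.97 (SE 0.0749) and −3.16 were the lowest of the 6 genes. Among the tested genes CYTB ranked 5th lowest against CON and 2nd lowest against GA.

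ATP6 was at 1931, 2049.9 and 2059.8 FPKM in CON, 2031, 2106 and 2169.7 in GA, and 387, 382 and 409 in GB. CON and GA overlapped, and GB lay far below both. The mean in GB was 393 ± 14.1 FPKM (SD, n = 3), 19.5% of that in CON and 18.7% of that in GA, with log2FC of −2.36 (SE 0.0443) and −2.42.

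ATP8 was at 48.7, 67.1 and 124 FPKM in CON, 106, 132 and 159.9 in GA, and 30.4, 34.8 and 28.9 in GB. It had the lowest level of the 6 genes and by far the widest spread in CON, where CON3 lay within the GA range. The mean in GB, 31.4 ± 3.08 FPKM (SD, n = 3), was 39.2% of that in CON and 23.7% of that in GA, with log2FC of −1.23 (SE 0.291) and −2.05. The value in GB vs. CON rested on single CON libraries, since it was −0.86 without CON3 and −1.53 without CON1. With the GC content of the library's reads as a covariate the value was −1.64 (SE 0.579). With GC and the replicate number as a block it was −1.11 (SE 0.636). The gene for ATP8 overlaps that for ATP6, and how reads shared by overlapping genes were assigned is not given in the sources used here.

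**Figure D1:**
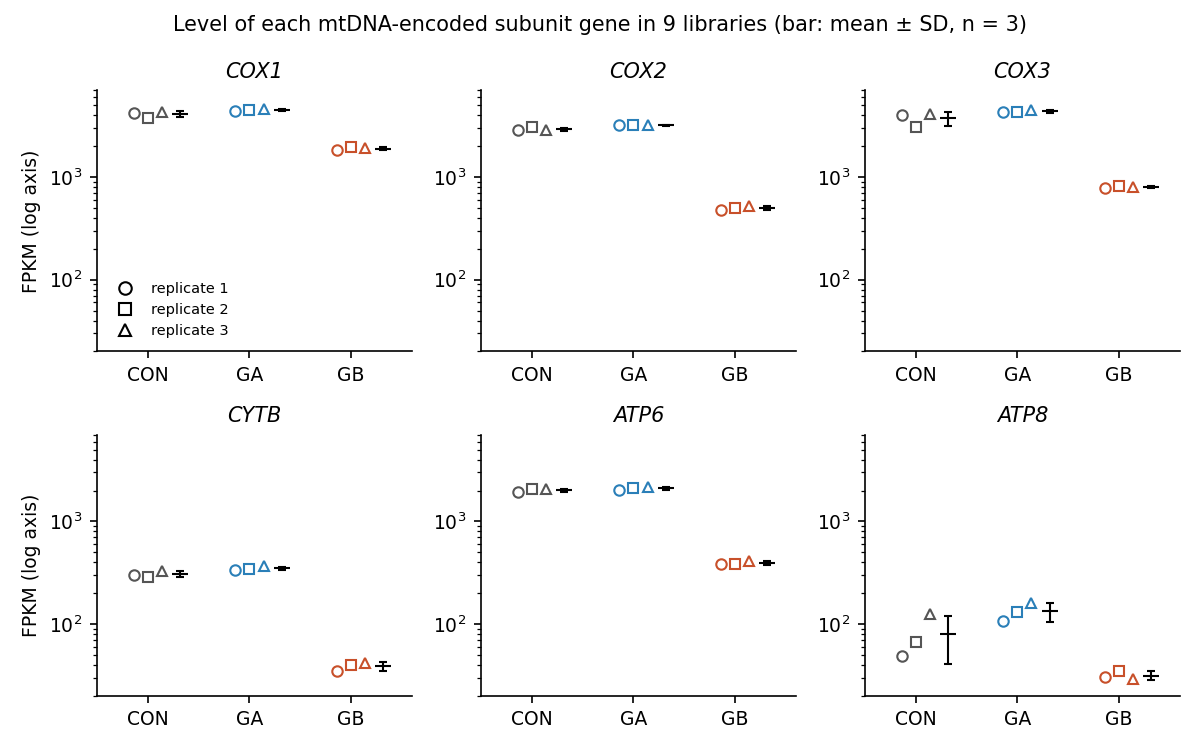
FPKM of the 6 mtDNA-encoded genes in each library, on a log axis, with 1 point per library and a bar at the mean of each group of 3 (CON, GA and GB). The GB points lie below the CON and GA points for every gene, least so for COX1, which is at 1821 to 1952 FPKM in GB, and the 3 CON points of ATP8 are spread from 48.7 to 124 FPKM.

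With GB set against CON, all 6 genes were called lower, beside 1.07% of all tested genes, and with GB set against GA likewise all 6, beside 0.978%. Their GB libraries lay below every CON library, as for 23.9% of tested genes, and below every GA library, as for 31%. Against CON only 5 were called, ATP8 not among them, without CON3, with the GC covariate, and with GC and the block. Since the genes were chosen for their lower FPKM in GB, nothing is read from those counts. The lowest and highest log2FC of the 6 were 1.85 apart against CON and 1.90 apart against GA. Their medians were −2.29 and −2.43, against −0.016 and −0.075 for all tested genes. From the smallest to the largest difference the order against CON was COX1, ATP8, COX3, ATP6, COX2 and CYTB, and against GA it was COX1, ATP8, ATP6, COX3, COX2 and CYTB. The places of COX1 and ATP8 against CON turned on 1 library, since without CON3 they were at −1.08 and −0.86. With GC and the block these genes also changed places, at −1.37 and −1.11. The place of COX3 against CON was not firm either. With the GC covariate COX3 was at −2.636, beyond COX2 (−2.535) and ATP6 (−2.382). With the block added the values were −2.716, −2.529 and −2.266.

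The order of the levels was the same in all 3 groups, with COX1 first, followed by COX3, COX2, ATP6, CYTB and ATP8. COX1 and COX3 overlapped in CON and in GA, where COX1 averaged 1.10 and 1.03 times COX3. In GB they no longer overlapped, and COX1 was at 2.37 times COX3. CYTB and ATP8 were well apart in CON, at 307 ± 20.1 and 80.0 ± 39.4 FPKM (SD, n = 3), and overlapped in GB, at 38.6 and 31.4 FPKM. By mean FPKM in the whole table COX1 ranked 28th in CON, 20th in GA and 122nd in GB, whereas CYTB ranked 722nd, 663rd and 4461st.

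The 6 genes summed to 12371 to 13904 FPKM for CON, 14430.0 to 15014 for GA and 3525 to 3741 for GB. As a share of the library's total FPKM this came to 0.942% ± 0.049 (SD, n = 3) for CON, 1.02% ± 0.0186 for GA and 0.260% ± 0.00631 for GB. COX1 made up 31.3% ± 0.384 of the sum in CON, 30.8% ± 0.0909 in GA and 51.9% ± 0.318 in GB (SD, n = 3). The share of COX2 was 22.3% ± 2.10 in CON and 13.6% ± 0.218 in GB, and that of CYTB was 2.31% ± 0.0668 and 1.05% ± 0.0676. The share of ATP8 overlapped between groups, at 0.599% ± 0.271, 0.898% ± 0.166 and 0.855% ± 0.0802 for the 3 groups in turn.

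**Figure D2:**
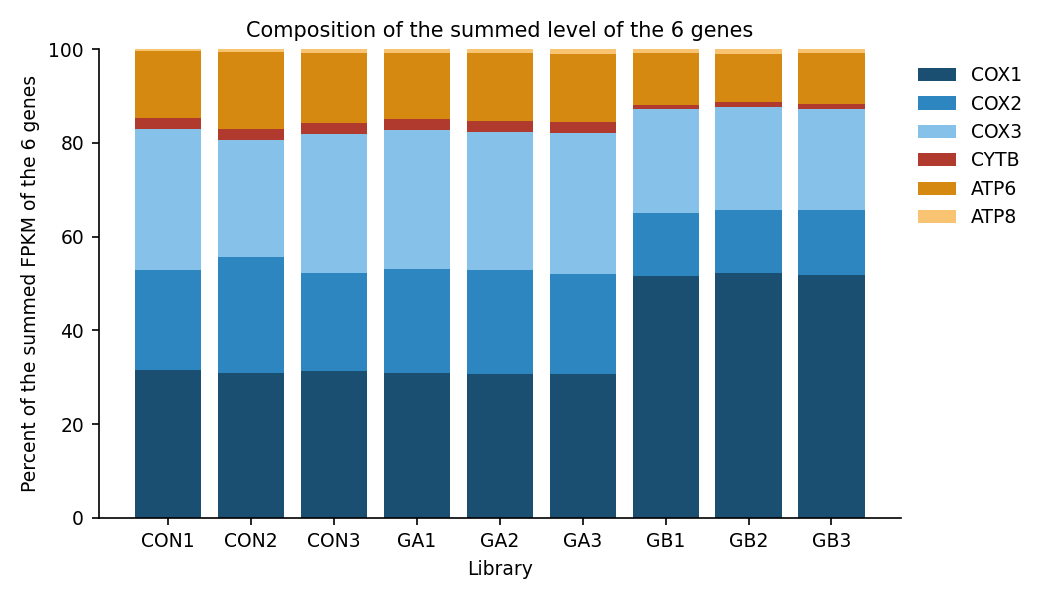
Share (%) of each of the 6 genes in their summed FPKM, with 1 stacked bar per library. COX1 fills 30.8% to 31.6% of the bars of the 6 CON and GA libraries and 51.7% to 52.3% in the 3 GB libraries, and CON2 has less COX3 (25.0%) and more COX2 (24.7%) than the other CON and GA libraries.

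Ratios between genes within a library do not depend on how libraries are scaled to each other. Of the 15 ratios among the 6 genes, 13 did not overlap between GB and CON, 13 between GB and GA, and 2 between GA and CON. For comparison, of the 780 ratios among 40 nuclear-encoded subunits of the same complexes 32.4%, 40.3% and 34.5% did not overlap. The 15 ratios share 6 genes chosen for their lower FPKM in GB, so nothing is read from the counts with GB. COX1 over COX2 was 0.49 ± 0.15 on the log2 scale for CON (SD, n = 3), 0.50 ± 0.03 for GA and 1.93 ± 0.03 for GB, that is 1.41, 1.41 and 3.81 times in mean FPKM. COX1 over CYTB was 13.5 times in CON and 49.3 times in GB, with a change of 1.85 in log2 (SE 0.0601) in GB vs. CON. COX1 was thus further above COX2 and CYTB in GB than in CON.

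COX3 over ATP6, neighbours on mtDNA, was among the ratios that did overlap. It was 0.89 ± 0.26 in log2 for CON (SD, n = 3), 1.06 ± 0.02 for GA and 1.03 ± 0.07 for GB, and differed by −0.03 (SE 0.0397) in GB vs. GA. COX1 over ATP8 overlapped between GB and CON, at 5.91 and 5.79 in log2, and ATP6 over ATP8 between GB and GA. COX2 over ATP6 did not overlap but moved little, by −0.21 (SE 0.0411) in GB vs. CON. CYTB over ATP6 moved by −0.62 (SE 0.0869). The ratios that separated GA from CON were COX1 over COX3, at 0.15 ± 0.13 in CON and 0.05 ± 0.01 in GA, and CYTB over ATP6, at −2.72 ± 0.09 and −2.60 ± 0.02.

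In the order of the RefSeq table of assembly ARS-UCD2.0, used here for neighbours only, COX1 lies between ND2 and COX2, then follow ATP8, ATP6 and COX3, and CYTB comes last, after ND6. ATP8 overlaps ATP6 and ATP6 overlaps COX3, whereas tRNA genes lie between COX1 and each of its neighbours. The log2FC in GB vs. CON was −2.43 for ND2, −1.12 for COX1 and −2.56 for COX2, so that COX1 lay between genes with larger differences. COX1 over ND2 was 1.21 ± 0.00193 in log2 for CON (SD, n = 3), 1.17 ± 0.00788 for GA and 2.52 ± 0.0605 for GB. CYTB had −2.97 beside −1.89 for ND6, which is encoded on the other strand. Against CON the 7 complex I genes ranged from −3.13 for ND4L to −1.89 for ND6 (median −2.43), and against GA from −3.20 for ND4L to −2.12 for ND1. COX1 was above that range in both comparisons and ATP8 against CON. Against GA, ATP8 at −2.05 (SE 0.291) was not clearly apart from ND1 (SE 0.125), and was at −2.20 to −1.90 with single libraries left out. The other 4 genes lay within the range in both comparisons.

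**Figure D3:**
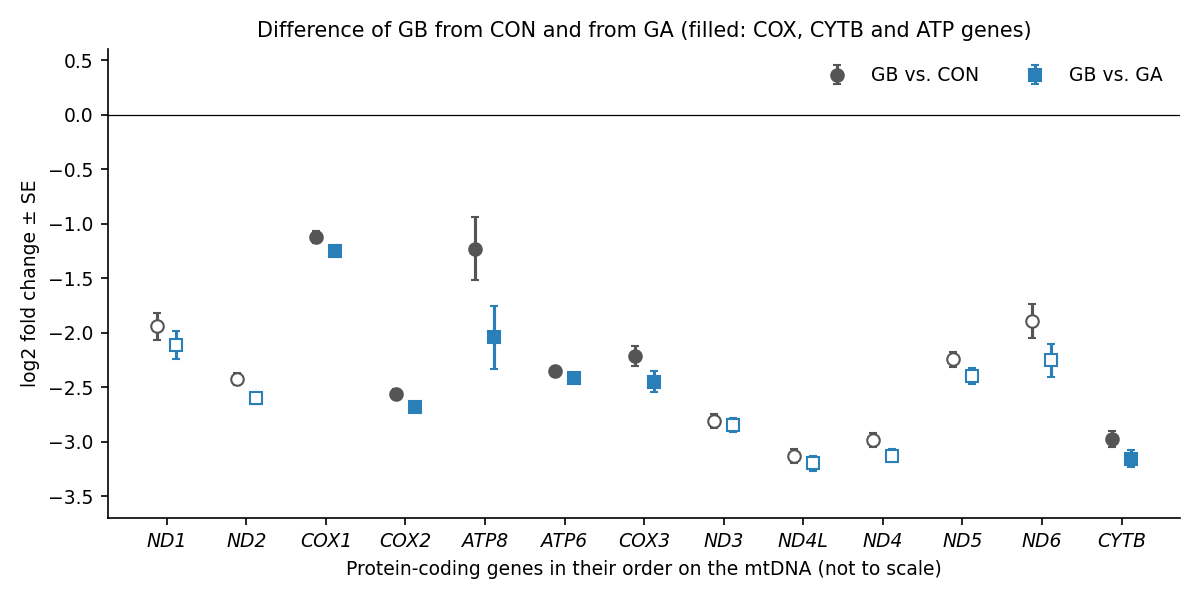
log2FC of the 13 mtDNA-encoded protein genes, GB against CON and GB against GA, placed in their order on mtDNA, with the 6 genes of complexes III, IV and V marked apart from those of complex I and bars for the SE. COX1, at −1.12 and −1.25, stands above its neighbours ND2 and COX2.

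GA vs. CON compares cells given E2 and P4 with untreated cells, and the choice of the 6 genes did not rest on it. Without separate harvest times, the hormones and a difference in culture time cannot be told apart here either. None of the 6 passed an adjusted p of 0.05 in limma, as against 0.453% of all tested genes, and none was called, as against 0.0716%. All 6 means were higher in GA, with log2FC of 0.06 to 0.81 and a median of 0.16, while the median of all tested genes was 0.06. The unadjusted p of limma was under 0.05 for 5 of the 6, all but ATP6, and for 19.3% of all tested genes.

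The GA libraries lay above the CON libraries without overlap for COX1, COX2, COX3 and CYTB, as they did for 18.6% of tested genes. The log2FC was 0.13 for COX1 (SE 0.0545, adjusted p = 0.234 in limma, adjusted over all tested genes) and 0.07 without CON2, and it was 0.12 for COX2 (SE 0.0428, adjusted p = 0.176, limma). COX3 was at 0.23 (SE 0.0962, adjusted p = 0.233, limma) and at 0.10 without CON2. CYTB had 0.18 (SE 0.0749) with the same adjusted p as COX3, and ATP6 0.06 (SE 0.0443, adjusted p = 0.462, limma). With library GC content (of the sequenced reads) added as a covariate, the values of COX1, COX3 and CYTB turned to −0.07, −0.16 and −0.07, and that of ATP6 was −0.004 after quantile normalization.

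ATP8 had the largest value in GA vs. CON, with a log2FC of 0.81 (SE 0.291, adjusted p = 0.19, limma). Without CON3 it was 1.19 (adjusted p = 0.0461, limma), which would be a call, and without CON1 it was 0.51 (adjusted p = 0.318, limma). The difference between GA and CON was therefore decided by which of the 3 CON values of ATP8 entered it.

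The nuclear-encoded subunits of complexes III, IV and V give the other side of the same enzymes. Of 40 tested subunits, 1 was called higher and 1 lower in GB vs. CON, as against 2.94% and 1.07% of all tested genes. In GB vs. GA 1 was called higher, as against 2.66%, and none lower. Their median log2FC was −0.12 against CON and −0.06 against GA, beside −2.29 and −2.43 for the 6 mtDNA-encoded genes. Without the limit on fold change, 1 rose and 8 fell in GB vs. CON at an adjusted p under 0.05 in limma, beside 16.2% of all tested genes that rose and 33.5% that changed in either direction. In GB vs. GA 3 rose and 8 fell, beside 9.87% that rose and 29% that changed. With the GC covariate 0 subunits passed as lower against CON, and median-of-ratios scaling left 3 lower against GA.

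COX7A1, the muscle-type isoform of a complex IV subunit, was the gene that rose. It was at 26.2, 20.2 and 17.9 FPKM in CON, 28.0, 21.3 and 30.9 in GA, and 134, 122 and 112 in GB, above every other library. Its log2FC was 2.50 in GB vs. CON (SE 0.161, adjusted p = 3.41e-06, limma) and 2.19 in GB vs. GA (adjusted p = 9.89e-06, limma). COX6B2, the testis-type isoform of another complex IV subunit, fell from 39.9, 27.8 and 21.9 FPKM in CON to 13.1, 18.0 and 11.2 in GB (log2FC −1.04, SE 0.219, adjusted p = 0.00591, limma). That call was lost without CON1 (−0.82), without GB3 (−0.90) and with the GC covariate (adjusted p = 0.147, limma).

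Among genes with an adjusted p under 0.05 that were not called in GB vs. CON, the largest changes were the falls of the complex III subunits UQCR11 (−0.48) and UQCRQ (−0.47) and of ATP5F1D of ATP synthase (−0.33). Against GA ATP5F1D also fell, by 0.35 (adjusted p = 0.00231, limma). UQCR11, at −0.20 (adjusted p = 0.132, limma), and UQCRQ, at 0.04 (adjusted p = 0.862, limma), did not pass against GA. In GB vs. GA COX6B2 had −0.99 (adjusted p = 0.00882, limma), ATP5MD rose by 0.65 (adjusted p = 0.044, limma) and ATP5IF1, the inhibitor of ATP synthase, by 0.36 (adjusted p = 0.00291, limma). ATP5MD no longer passed without CON2, GA2, GA3 or any of the GB libraries (adjusted p up to 0.14, limma), without the filter or the variance trend, or with the GC covariate. In GA vs. CON no nuclear-encoded subunit passed an adjusted p of 0.05 in limma, and 16 of the 40 had an unadjusted p under 0.05, beside 19.3% of all tested genes. Among the subunits fixed as examples, UQCRC1, a core subunit of complex III, fell by 0.21 against CON (adjusted p = 0.00493, limma) and by 0.13 against GA (adjusted p = 0.0425, limma). UQCRFS1, ATP5F1A and ATP5F1B fell against GA, by 0.20, 0.12 and 0.13, and did not pass against CON. Each of these 4 falls against GA was lost under 12 of 22 alternatives, and UQCRC1 against CON with the GC covariate, alone or with the block. CYC1, COX4I1, COX5A and ATP5PO passed in neither, with log2FC against CON of −0.10 for CYC1 (SE 0.0405), −0.13 for COX4I1 (SE 0.0478), 0.12 for COX5A (SE 0.0627) and −0.03 for ATP5PO (SE 0.0564).

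Set against chosen partners of this kind, COX2, COX3, CYTB and ATP6 passed from the higher to the lower mean FPKM of the pair. ATP6 did so against only 1 of 2 partners, and CYTB was close to its partner in CON. COX2 was at 2.27 times COX4I1 in mean FPKM in CON, 2.53 times in GA and 0.420 times in GB, and COX3 at 2.89, 3.45 and 0.675 times. COX1 stayed above COX4I1, at 3.19, 3.57 and 1.60 times. CYTB was at 1.07, 1.33 and 0.145 times CYC1, the cytochrome c1 gene of complex III, and in CON2 already lay below it (−0.04 in log2). ATP6 was at 2.80, 2.89 and 0.587 times ATP5F1A, the alpha subunit of ATP synthase, and at 5.15, 5.02 and 1.03 times ATP5PO, which it did not fall below on average. ATP8 was below ATP5F1A in all groups, at 0.111, 0.182 and 0.0469 times. For each of these 7 ratios the GB libraries lay below all CON and GA libraries. Of the ratios among pairs of nuclear-encoded subunits, 32.4% did not overlap between GB and CON and 40.3% between GB and GA. The mtDNA-encoded genes were chosen for their lower FPKM in GB, so nothing is read from the count of 7.

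**Figure D4:**
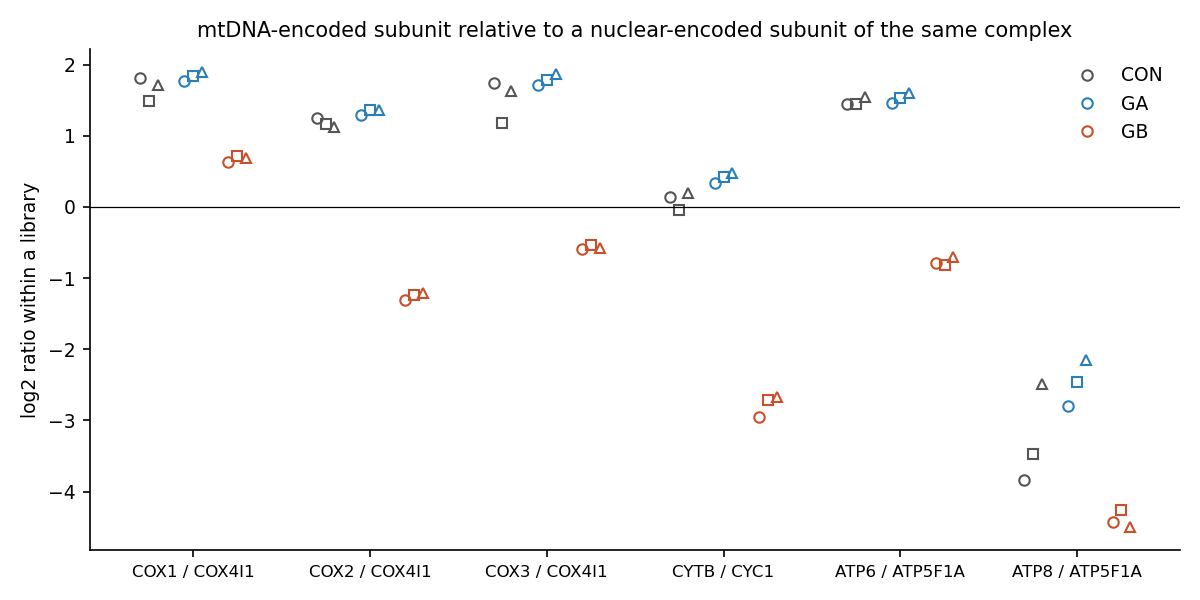
log2 ratio of each mtDNA-encoded gene to a nuclear-encoded subunit of the same complex in each library, with circle, square and triangle for replicates 1, 2 and 3, and a line at 0 where both are equal. COX2, COX3, CYTB and ATP6 lie below 0 in all GB libraries, and COX1 over COX4I1 stays above 0, at 0.64 to 0.72.

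Factors that insert and assemble these subunits are also nuclear-encoded. Of 32 tested assembly factors none was called by limma in any comparison. Of all tested genes 4.01% were called with GB against CON, 3.64% with GB against GA and 0.0716% with GA against CON. With GB against CON 11 of the 32 had an unadjusted limma p under 0.05 (43.8% of all tested genes did). With GB against GA 7 did (40%), and with GA against CON 5 (19.3%). In GB vs. CON 6 rose and 2 fell at an adjusted p under 0.05, beside 16.2% of all tested genes that rose and 33.5% that changed. With the GC covariate 1 rose and 2 fell, and with GC and the replicate block none did. SCO1, which delivers copper to COX2, rose by 0.80 in log2 (adjusted p = 0.000283, limma), COA7 rose by 0.60, and FMC1, an assembly factor of ATP synthase, fell by 0.54 (adjusted p = 0.0108, limma). With the GC covariate SCO1 was at 0.38 (adjusted p = 0.0465, limma), and COA7 and FMC1 no longer passed (adjusted p = 0.25 and 0.432, limma). With the block added SCO1 did not pass either (adjusted p = 0.313, limma). In GB vs. GA SCO1 rose by 0.66 (adjusted p = 0.00106, limma), and FMC1 and COX18, which inserts part of COX2 into the membrane, fell by 0.50 and 0.32. COA7 did not pass in GB vs. GA, at 0.16 (adjusted p = 0.324, limma). LYRM7, a complex III assembly factor named after its values were seen, had the highest value of the list at 1.65 in GB vs. GA and did not pass (SE 0.625, adjusted p = 0.0782, limma). GA1, at 12.3 FPKM, lay within the GB range of 8.88 to 17.8. TACO1, a translational activator of COX1, had 0.24 in GB vs. CON (SE 0.199, adjusted p = 0.378, limma).

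Of 23 factors of mitochondrial transcription, RNA processing and decay, 1 was called against CON, beside 4.01% of all tested genes, and 1 against GA, beside 3.64%. PNPT1, the mitochondrial polynucleotide phosphorylase, was at 21.2, 17.3 and 20.9 FPKM in CON, 20.9, 22.2 and 21.7 in GA, and 129, 124 and 132 in GB. It rose by 2.67 in log2 in GB vs. CON (SE 0.077, adjusted p = 7.47e-09, limma) and by 2.54 in GB vs. GA (adjusted p = 1.11e-08, limma). Without the limit on fold change, 8 rose and 1 fell against CON, beside 16.2% of all tested genes that rose and 33.5% that changed, and 4 rose and 4 fell against GA, beside 9.87% and 29%. With the GC covariate 1 rose and 1 fell in GB vs. CON.

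POLRMT, the mitochondrial RNA polymerase, rose by 0.40 and 0.39 in log2 in the 2 comparisons with GB, and PDE12, a mitochondrial deadenylase, by 0.50 and 0.44. With the GC covariate POLRMT no longer passed against CON (adjusted p = 0.0927, limma). TFB2M, a mitochondrial transcription factor, fell by 0.39 and 0.48, and FASTKD1 fell by 0.49 in GB vs. GA. LRPPRC, which stabilizes mitochondrial mRNAs, rose by 0.16 in GB vs. CON (adjusted p = 0.015, limma) and had 0.08 in GB vs. GA (adjusted p = 0.17, limma). Its partner SLIRP had −0.09 in GB vs. CON (SE 0.0731), and TFAM, which packages mtDNA, 0.50 (SE 0.221, adjusted p = 0.116, limma). TBRG4 (0.11) and FASTKD5 (0.07), which act on mitochondrial mRNAs, also did not pass. In GA vs. CON none of the 55 assembly and RNA factors passed an adjusted p of 0.05 in limma, and 9 had an unadjusted p under 0.05, beside 19.3% of all tested genes.

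**Figure D5:**
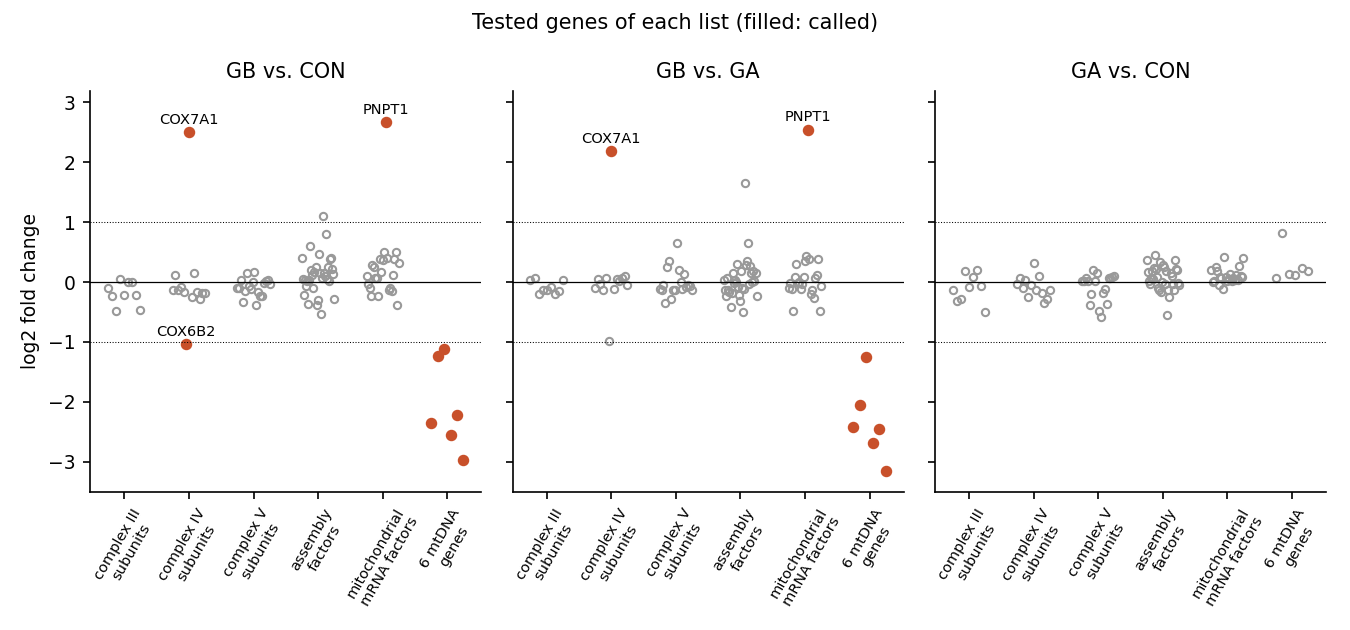
log2FC in the 3 comparisons for the 6 mtDNA-encoded genes and for nuclear-encoded subunits, assembly factors and RNA factors, with 1 point per tested gene. The mtDNA-encoded genes lie between −3.16 and −1.12 in the comparisons with GB, and most nuclear-encoded points lie near 0, with COX7A1 and PNPT1 above 2.

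The nuclear genes whose pattern over the 9 libraries came nearest to the mean of the 6 genes were RAB18, FAM92A, FITM2, MTFR1 and RENBP, by the root mean square of the differences in log2(FPKM + 0.5), each centred on its CON mean. RAB18 was nearest, at 0.18, with 129 ± 7.55 FPKM (SD, n = 3) for CON, 139 ± 6.04 for GA and 33.3 ± 1.67 for GB. FAM92A was at 0.19, FITM2 at 0.22, MTFR1 at 0.30 and RENBP at 0.32. By the same measure COX3, itself part of the mean, was at 0.13, ATP6 at 0.21, COX2 at 0.31, CYTB at 0.52, COX1 at 0.56 and ATP8 at 0.65. The complex I genes ND5 and ND1, which are not part of the mean, were at 0.14 each. RAB18 was thus less close than COX3, ND5 and ND1. It was closer than ATP6, COX2, CYTB, COX1 or ATP8 by this measure, which counts the size of the difference in GB. The Pearson correlation with the mean over the 9 libraries was 0.990 for RAB18, 0.997 for CYTB and COX1 and 0.904 for ATP8. By correlation CYTB and COX1, themselves part of the mean, therefore followed it more closely than RAB18 did.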

How the data were processed

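The authors trimmed reads with fastp 0.21.0, removed rRNA reads with Bowtie2 (2.33 in the submitters' processing notes), aligned the rest to assembly ARS-UCD1.2 with HISAT2 2.2.1 and quantified genes with RSEM 1.3.3, after poly-T purification of mRNA and directional library preparation. What was deposited are FPKM, computed by the authors for each gene in each library and written to 2 decimals. They hold no counts, so depth per gene is unknown.

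Values were used as log2(FPKM + 0.5) in R 4.3.3 with limma 3.58.1. A gene needed a mean FPKM of 0.5 across libraries, which left out 4584 of 17162, and 12578 were fitted in 1 model with a mean per group and a variance trend, with Benjamini-Hochberg adjustment over all of them. All 6 mtDNA-encoded genes passed that filter. The scripts were tested on simulated data. Figures were drawn with Python 3.11.15 and matplotlib 3.10.9. The smallest p that exact permutation allows for 3 libraries against 3 is 0.1.

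The members and the gene lists were chosen with earlier results of these data known. Named genes are the 6 members, the ends of the complex I range, each called gene of the nuclear lists, for each comparison the 3 largest changes at an adjusted p under 0.05 that were not called, fixed examples, the 5 nuclear genes nearest in pattern and the check genes ISG15 and GREB1. ND2 and ND5 were named for comparison with COX1 and RAB18. Genes that act with the members but were not analysed here are UQCC2, SURF1, COA4, CMC2, COX6A2, COX6C and COX8B, as are the markers EPCAM, PTPRC and CD3E. ATP5MJ, ATP5MK and PRORP were read under their older symbols ATP5MPL, ATP5MD and KIAA0391. Library GC content, used as a covariate, came from the study's read statistics. The alternatives were other pseudocounts, filters and scalings, no variance trend, only the groups compared, the replicate block, GC content, GC content with the block, and each library left out.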

Additional observations from a re-analysis of the deposited data

How the results depend on the processing

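In GB vs. CON the distance between the smallest and the largest log2FC of the 6 genes was 1.95 after quantile normalization, 2.07 with the GC covariate and the replicate block, and 1.81 to 2.06 with single libraries left out. The median of the 6 genes was −2.46 in GB vs. CON with the GC covariate, −2.36 in GB vs. GA with median-of-ratios factors, and −0.016 in GA vs. CON with the GC covariate, where its sign turned. Of the nuclear-encoded subunits 1 was called in GB vs. CON with the GC covariate, alone or with the block, and 1 to 2 with single libraries left out. In GB vs. GA 2 were called with a pseudocount of 0.1 or with GC and block, and 1 to 2 with single libraries left out. Of the assembly and RNA factors 2 were called in GB vs. CON when only those groups were fitted, and in GB vs. GA 2 with the block, alone or with GC, and 1 to 2 with single libraries left out. The cause was not tested. Same-numbered libraries did not deviate together over all genes (r −0.0306 to 0.0772), which does not tell whether they shared a preparation. The replicate block left the medians of the 6 genes at −2.29, −2.43 and 0.16. With it 13 nuclear-encoded subunits were lower in GB vs. CON at an adjusted p under 0.05 in limma, against 8 without it. Over all genes GC with the block gave 328 calls in GB vs. CON, against 504, and 0 in GA vs. CON, against 9. Depth per gene is unknown, and how reads shared with ATP6 or with nuclear copies of mtDNA were assigned is not given in the sources used here.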
